A study of Homo sapiens with 10 samples.

Results

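A set of 10 transcription factors and cofactors of the megakaryocyte and erythroid lineages (GATA1, GATA2, TAL1, ZFPM1, FLI1, RUNX1, GFI1B, NFE2, KLF1 and LMO2) were followed in MEG-01 cells, a human megakaryoblastic leukemia line. They were chosen by name, and every probe of the array whose symbol or RefSeq transcript belonged to one of these genes was taken. This gave 14 of the 42405 probes and 10 of the 17379 genes tested, and all 14 probes passed the filter on dim signals. One group of cells received the miR-1225-3p precursor by nucleofection, at 200 nM, and the other a scrambled negative control precursor at the same dose, and total RNA was taken after 24 hours. Both groups are the same line in culture and both went through nucleofection, so each value stands for a leukemia line and not for marrow megakaryocytes. There were 5 arrays per group, labelled as biological replicates. Grouping followed the sample titles, which name the scrambled transfection, although another label gives these cells as untreated. The arrays read mRNA, so the level of miR-1225-3p itself was not measured on them.

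Megakaryocytes and red cells arise from a shared progenitor, and a small circuit of DNA-binding proteins sets their gene expression. GATA2 acts early, in stem and progenitor cells, and gives way to GATA1, with its cofactor FOG1 (the product of ZFPM1), as cells mature. TAL1 binds E-box motifs beside GATA sites in a complex bridged by LMO2 and LDB1. FLI1, RUNX1 and NFE2 serve the megakaryocyte and platelet programme, KLF1 the red cell programme, and GFI1B represses transcription in both.

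The transfected microRNA is shown first, because bases 2 to 8, the seed in capitals, are the part with which a microRNA pairs to its targets. The sequence is that of RefSeq at chr16:2090195-2090216 on the minus strand (GRCh38.p14), 22 bases long.
hsa-miR-1225-3p: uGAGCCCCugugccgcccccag

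Promoters of 7 of the 10 genes were given in the RefSeq table used here, 10 promoters of 300 bases in all, each from 250 bases before to 50 bases after a transcription start. The table had no entry for FLI1, NFE2 or LMO2. The GATA motif GATAA, searched on both strands, was found in 3 of these 10 promoters and in 22.7% of all 35116 promoters of the table. The 3 stretches that hold it are shown because GATA proteins are known to act on the genes of this circuit, with the motif in capitals (TTATC is the same motif read on the other strand). Each stretch is 80 bases long and ends before the start of transcription (GRCh38.p14). That of TAL1 lies at chr1:47232345-47232424 on the minus strand, that of GFI1B at chr9:132978541-132978620 on the plus strand and that of KLF1 at chr19:12887226-12887305 on the minus strand.
TAL1: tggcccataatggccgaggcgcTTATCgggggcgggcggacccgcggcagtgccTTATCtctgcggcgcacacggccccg
GFI1B: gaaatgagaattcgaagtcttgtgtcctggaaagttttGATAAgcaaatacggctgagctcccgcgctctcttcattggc
KLF1: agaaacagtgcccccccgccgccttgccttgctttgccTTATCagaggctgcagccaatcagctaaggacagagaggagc

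The matches begin 67 and 35 bases before the start in TAL1, 115 bases before it in GFI1B and 66 bases before it in KLF1. GFI1B fell after miR-1225-3p, while TAL1 and KLF1 did not pass the test (values below). The windows of GATA1, GATA2, RUNX1 and ZFPM1 did not hold these letters. The E-box CAGNTG was found in 4 of the 10 promoters, among them 1 of GATA2, both of GFI1B and that of KLF1, against 49.9% of all promoters. The RUNX motif TGTGGT was found only in a second TAL1 promoter, 3 times, against 13.1% of all promoters. These matches describe letters and not binding.

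Between the groups, 5 of the 10 genes changed, with an adjusted p under 0.05 in limma over all 17379 genes. GATA2, GFI1B, FLI1 and NFE2 fell after miR-1225-3p, and RUNX1, read by the brightest of its 5 probes, rose. Over all genes tested, 35.0% were called, 18.1% as lower and 17.0% as higher, so 5 of 10 stands beside a background of about 1 gene in 3. The log2 fold change was below 0 for 9 of the 10 genes, with a median of -0.32 against -0.06 for all genes tested. With each array's 75th percentile subtracted in place of cyclic loess, 4 of the 10 were below 0, NFE2 not among them, with a median of 0.07 against 0.16. No gene of the 10 was both called and changed by more than 2-fold. In these bulk samples, fewer cells of a type and less RNA per cell cannot be told apart.

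**Figure D1:**
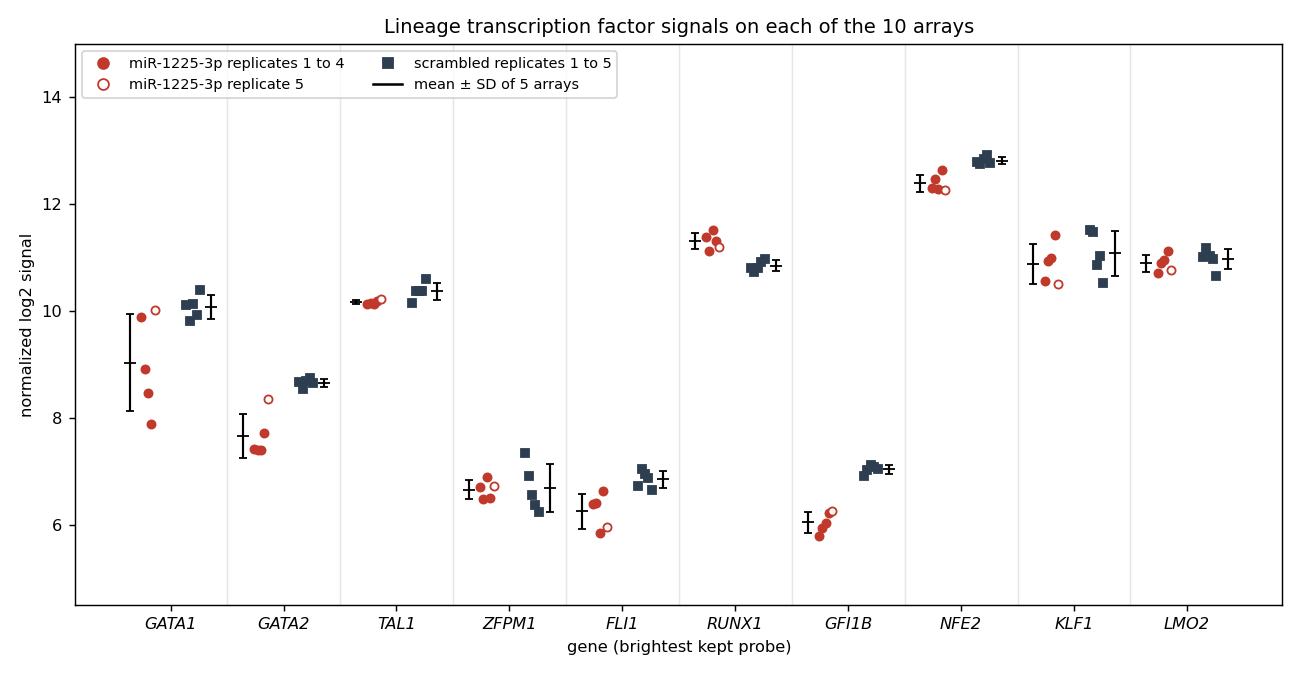
Normalized log2 signal (vertical axis) of the brightest kept probe of each of the 10 genes (horizontal axis) on each of 10 arrays, with the mean and SD of the 5 arrays of a group in black. The 5 miR-1225-3p points lie below the 5 scrambled points for GATA2, FLI1, GFI1B and NFE2, and above them for RUNX1, while levels of different probes cannot be compared.

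One array stood apart. On the first principal component over all genes, which held 69.6% of the variance, miR-1225-3p replicate 5 scored 56.74, within the scrambled arrays (48.65 to 79.87) and away from the other miR-1225-3p arrays (-133.4 to -52.98). Without it, 55.4% of genes were called over the whole array, and its effect on the 10 genes and the lists is given with them. The arrays lay on 2 slides, each with both groups. Between 41.95% and 61.18% of spots were well above background, no spot was saturated, and all 10 genes were well above background on every array with the probe that represents them.

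GATA2 drives the progenitor stage of the circuit. Its normalized log2 signal was 7.42, 7.40, 7.40, 7.72 and 8.35 on miR-1225-3p replicates 1 to 5, and 8.67, 8.54, 8.69, 8.74 and 8.64 on scrambled replicates 1 to 5. All miR-1225-3p arrays lay below all scrambled arrays, with replicate 5 the nearest to them. The log2 fold change was -0.999 (standard error 0.192, adjusted p = 0.0138 from limma), which is 2.00-fold lower. Without replicate 5 it was -1.17 (adjusted p = 7.73e-05 from limma). The gene stayed past the threshold when any 1 of the 10 arrays was left out. It fell by 1.26 within slide 1 (adjusted p = 0.0139 from limma), and the value within slide 2, which holds replicate 5, was -0.82 (adjusted p = 0.494).

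GATA1, which takes over from GATA2 in maturing megakaryocytes and red cells, did not pass the test. Its signal was 9.88, 8.92, 8.47, 7.88 and 10.02 on the miR-1225-3p arrays and 10.11, 9.81, 10.13, 9.92 and 10.39 on the scrambled arrays. Replicates 2, 3 and 4 lay below every scrambled array, while replicates 1 and 5 lay among them. The log2 fold change was -1.04 (95% confidence interval -1.89 to -0.19) with a standard error of 0.383, and the adjusted p from limma was 0.0572. The group SD was 0.913 after miR-1225-3p and 0.223 in scrambled cells. Without replicate 5 the log2 fold change was -1.28 and the call was gained (adjusted p = 0.012 from limma), and it was also gained without replicate 1 (-1.25, adjusted p = 0.0442). With the authors' normalized values limma called GATA1 as well (-1.05, adjusted p = 0.047). So did limma with array weights (-1.09, adjusted p = 0.00099) and with a trended, robust fit (adjusted p = 0.0499). The call was gained in these 5 alternatives and not in 22 others. The interval therefore holds changes from a slight one to more than 2-fold.

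Of the cofactors, ZFPM1 (FOG1), which GATA1 and GATA2 recruit, had signals of 6.71, 6.48, 6.89, 6.49 and 6.72 after miR-1225-3p and of 7.35, 6.91, 6.55, 6.36 and 6.23 in scrambled cells. The miR-1225-3p values lay inside the range of the scrambled ones, and the log2 fold change was -0.02 (95% confidence interval -0.50 to 0.45, adjusted p = 0.94 from limma). TAL1, the basic helix-loop-helix factor of the complex, was at 10.13, 10.14, 10.14, 10.19 and 10.22 after miR-1225-3p and at 10.15, 10.37, 10.38, 10.37 and 10.60 in scrambled cells. Scrambled replicate 1 lay among the miR-1225-3p arrays, and the other 4 lay above them. The log2 fold change of TAL1 was -0.21 (95% confidence interval -0.47 to 0.05) and did not pass the threshold (adjusted p = 0.176 from limma). Of the alternatives only array weights gave a call for TAL1 (-0.235, adjusted p = 0.0182 from limma), where 67.7% of all genes were called. LMO2, the LIM-domain bridge of that complex, is printed 10 times on the array. Its signal ranged from 10.72 to 11.12 after miR-1225-3p (median 10.90) and from 10.66 to 11.18 in scrambled cells (median 11.01). The groups overlapped throughout, with a log2 fold change of -0.08 (95% confidence interval -0.39 to 0.23, adjusted p = 0.665 from limma). Without replicate 5 the values were -0.04 for ZFPM1, -0.22 for TAL1 and -0.05 for LMO2, and none of them passed.

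GFI1B is a zinc finger repressor that both lineages need. Its signal was 5.78, 5.94, 6.03, 6.22 and 6.27 on the miR-1225-3p arrays and 6.91, 7.02, 7.13, 7.08 and 7.04 on the scrambled arrays. The groups were separated by 0.65 between the nearest arrays, a wider gap than for any other of the 10 genes. GFI1B fell by 0.99 on the log2 scale (standard error 0.129, adjusted p = 0.0109 from limma), which is 1.98-fold. Without replicate 5 the log2 fold change was -1.04 (adjusted p = 0.000153 from limma). It stayed past the threshold when any 1 array was left out and within slide 1 (-1.16, adjusted p = 0.016), and its value within slide 2 was -0.88 (adjusted p = 0.494). With normexp background correction of the median signals the value was smaller, at -0.57 (adjusted p = 0.0102). Across the 10 arrays the signals of GFI1B and GATA2 ran together (Pearson r = 0.943), a value that the difference between the groups enters.

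FLI1, an ETS factor of megakaryocytes, had signals of 6.40, 6.41, 5.84, 6.63 and 5.96 after miR-1225-3p and of 6.71, 7.05, 6.95, 6.88 and 6.65 in scrambled cells. The groups did not overlap, but miR-1225-3p replicate 4 and scrambled replicate 5 were only 0.017 apart. FLI1 fell by 0.60 (standard error 0.176, adjusted p = 0.0289 from limma), or 1.51-fold. Leaving out any of 5 arrays ended the call, namely miR-1225-3p replicates 2 and 3 and scrambled replicates 2, 3 and 4, with adjusted p-values from limma between 0.0569 and 0.0678. Without replicate 5 the value was -0.53 (adjusted p = 0.0264). FLI1 also lost its call with quantile normalization (-0.47, adjusted p = 0.0781) and with no filter on dim probes (adjusted p = 0.057), and normexp gave -0.31 (adjusted p = 0.0485). It was -0.37 within slide 1 (adjusted p = 0.178) and -0.82 within slide 2 (adjusted p = 0.494).

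NFE2 pairs with small MAF proteins to switch on late megakaryocyte and platelet genes. Its signal was 12.31, 12.47, 12.28, 12.64 and 12.27 after miR-1225-3p and 12.79, 12.76, 12.85, 12.92 and 12.77 in scrambled cells, so the lowest scrambled array lay 0.12 above the highest miR-1225-3p array. NFE2 fell by 0.43 (standard error 0.119, adjusted p = 0.0255 from limma), or 1.34-fold. This direction depended on the scaling, since with each array's 75th percentile subtracted the log2 fold change was 0.13 (adjusted p = 0.656 from limma). With quantile normalization it was -0.36 and did not pass (adjusted p = 0.0607). The call also ended when any of miR-1225-3p replicates 1 to 3 or scrambled replicates 3 and 4 was left out (adjusted p between 0.0515 and 0.0646 from limma). It was -0.42 within slide 1 (adjusted p = 0.117) and -0.44 within slide 2 (adjusted p = 0.495), and -0.39 without replicate 5 (adjusted p = 0.0144).

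KLF1, the activator of red cell genes, was at 10.57, 10.93, 11.00, 11.42 and 10.50 after miR-1225-3p and at 11.52, 11.47, 10.86, 11.02 and 10.53 in scrambled cells. Both groups covered about the same range, and the log2 fold change was -0.20 (95% confidence interval -0.74 to 0.34, adjusted p = 0.524 from limma). Without replicate 5 it was -0.10. On these arrays KLF1 and LMO2 ran together (Pearson r = 0.886 over 10 arrays), in both groups alike in range.

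**Figure D2:**
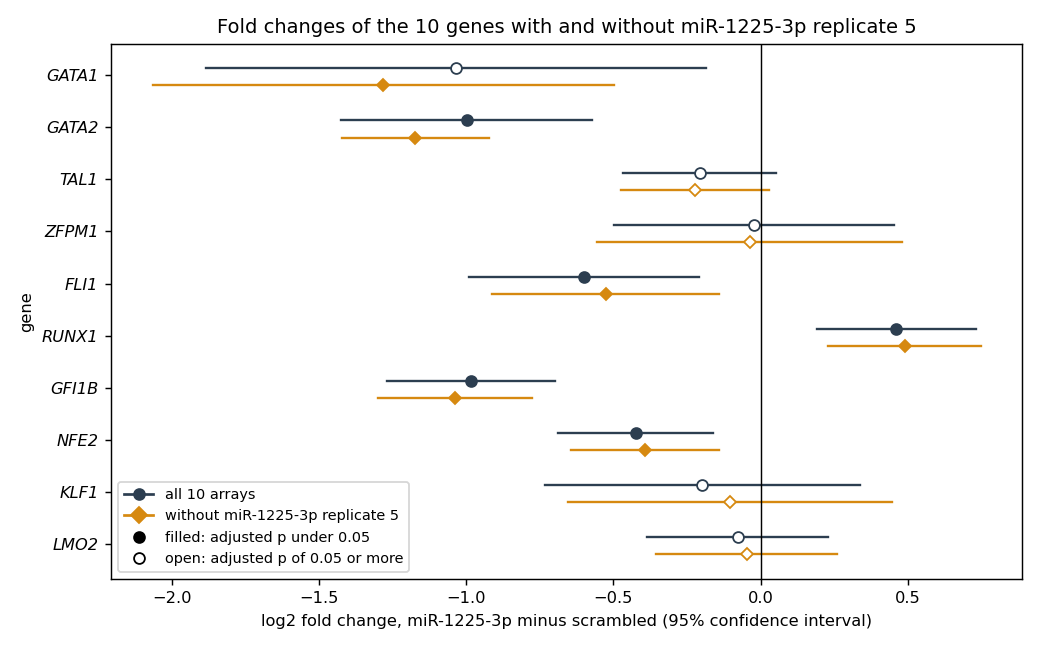
Log2 fold change of miR-1225-3p against scrambled cells (horizontal axis) with its 95% confidence interval for each of the 10 genes (vertical axis), from all 10 arrays and without miR-1225-3p replicate 5; filled markers passed an adjusted p of 0.05 in limma. Leaving out the array moved GATA1 from -1.04 to -1.28 and past the threshold, and no other gene of the 10 changed its side.

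RUNX1 was the only gene of the 10 with more than 1 probe on the array, and its probes did not move together. RUNX1 binds DNA with CBFB and serves megakaryocyte maturation and platelet formation, and it is made as several isoforms. The brightest probe, A_33_P3211804, which represents the gene, had signals of 11.38, 11.13, 11.52, 11.31 and 11.20 after miR-1225-3p and of 10.81, 10.72, 10.80, 10.91 and 10.98 in scrambled cells. All miR-1225-3p arrays lay above all scrambled arrays. With this probe RUNX1 rose by 0.46 (standard error 0.121, adjusted p = 0.0216 from limma), or 1.38-fold, and by 0.49 without replicate 5 (adjusted p = 0.00596). This call was lost without miR-1225-3p replicate 3, scrambled replicate 2 or scrambled replicate 3 (adjusted p between 0.0504 and 0.0571 from limma), and within the slides the values were 0.39 (adjusted p = 0.159) and 0.52 (adjusted p = 0.494).

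A second probe, A_24_P34155, had signals of 9.92, 9.87, 9.96, 10.20 and 9.26 after miR-1225-3p and of 9.07, 9.11, 9.15, 9.16 and 9.28 in scrambled cells. Replicates 1 to 4 lay above the scrambled arrays and replicate 5 lay among them. It rose by 0.69 (adjusted p = 0.0196 from limma over 20648 probes, of which 35.0% were called), and by 0.83 without replicate 5 (adjusted p = 0.000307). Probe A_24_P96403 did not differ beyond its spread, with signals from 6.19 to 6.90 and from 6.33 to 6.87 and a log2 fold change of 0.01 (95% confidence interval -0.35 to 0.38). Probe A_33_P3211809 gave a difference of -0.61 on the log2 scale (adjusted p = 0.211), with scrambled replicate 2 at 8.26 against 6.24 to 6.51 on the other 4 scrambled arrays. The dimmest probe, A_33_P3211818, was well above background on 1 miR-1225-3p array and 4 scrambled arrays. Its log2 fold change was -1.21 (adjusted p = 0.111 from limma), and -1.64 without replicate 5 (adjusted p = 0.0137).

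Of these 5 probes, 3 are annotated to 1 RefSeq transcript of RUNX1 (A_33_P3211804, A_24_P96403 and A_33_P3211818) and 2 to another. Probes of the same transcript thus gave 0.46, 0.01 and -1.21. With the mean of the 5 probes in place of the brightest one, the value for RUNX1 was -0.13 (adjusted p = 0.438 from limma). That mean includes the dimmest probe and the one with the outlying scrambled array. Of the 5 probes, 2 rose and 3 did not pass.

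**Figure D3:**
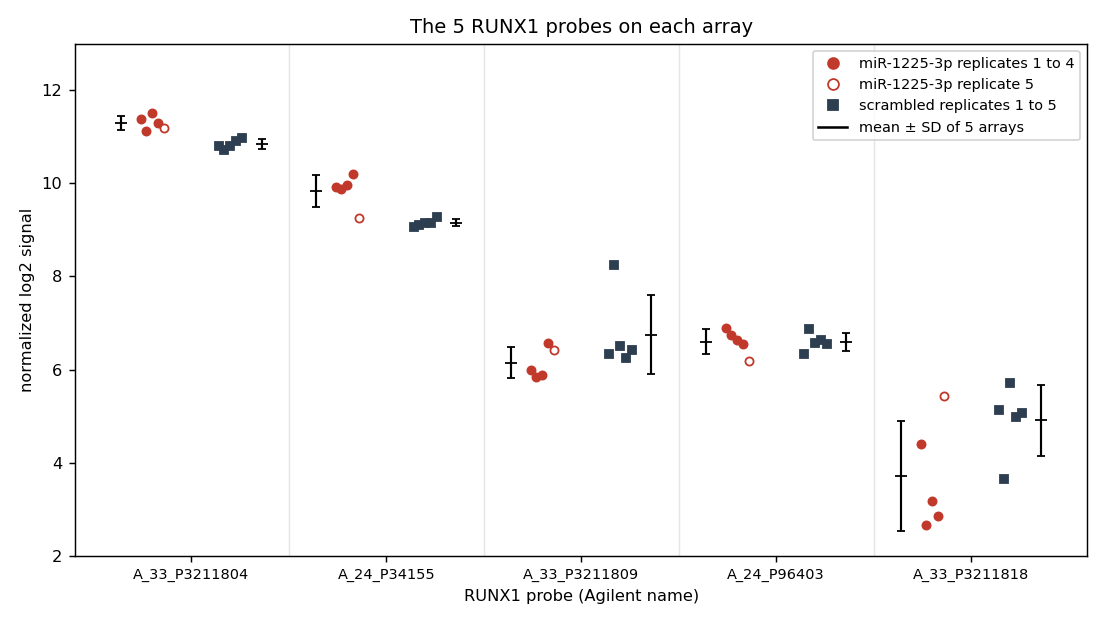
Normalized log2 signal (vertical axis) of the 5 RUNX1 probes (horizontal axis) on each array, with the mean and SD of the 5 arrays of a group in black. The 2 brightest probes were higher after miR-1225-3p (log2 fold changes 0.46 and 0.69), the third from the left shows scrambled replicate 2 at 8.26, and the dimmest probe lay at or below 5.72 on all arrays.

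The size of each change was read against the scaling of the arrays. The median log2 fold change of all genes was -0.06 after cyclic loess, 0.08 after quantile normalization, 0.16 with the 75th percentile subtracted and -0.26 with no normalization. GATA2 and GFI1B lay below these medians by a similar amount in each case. GATA2 stood at -0.94 relative to the median after cyclic loess, -0.89 after quantile normalization and -0.96 with the 75th percentile. GFI1B stood at -0.93, -0.93 and -1.13 in the same order. FLI1 lay between -0.54 and -0.74 relative to the median, and RUNX1 between 0.47 and 0.78 above it. NFE2 lay at -0.36 and -0.44 relative to the median in the first 2 scalings and at -0.03 with the 75th percentile. For TAL1, ZFPM1, KLF1 and LMO2 the sign of the log2 fold change turned with the 75th percentile, and for ZFPM1 and LMO2 also with quantile normalization, so no direction is given for them. The sign of NFE2 turned with the 75th percentile as well (0.13), and among these scalings only cyclic loess gave a called fall. NFE2 did not pass with quantile normalization (adjusted p = 0.0607 from limma) or with no normalization (-0.30, adjusted p = 0.667 from limma). With no normalization it lay at -0.03 relative to the median. With no normalization 0 of the 10 genes were called by limma, among 1266 genes called in all.

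**Figure D4:**
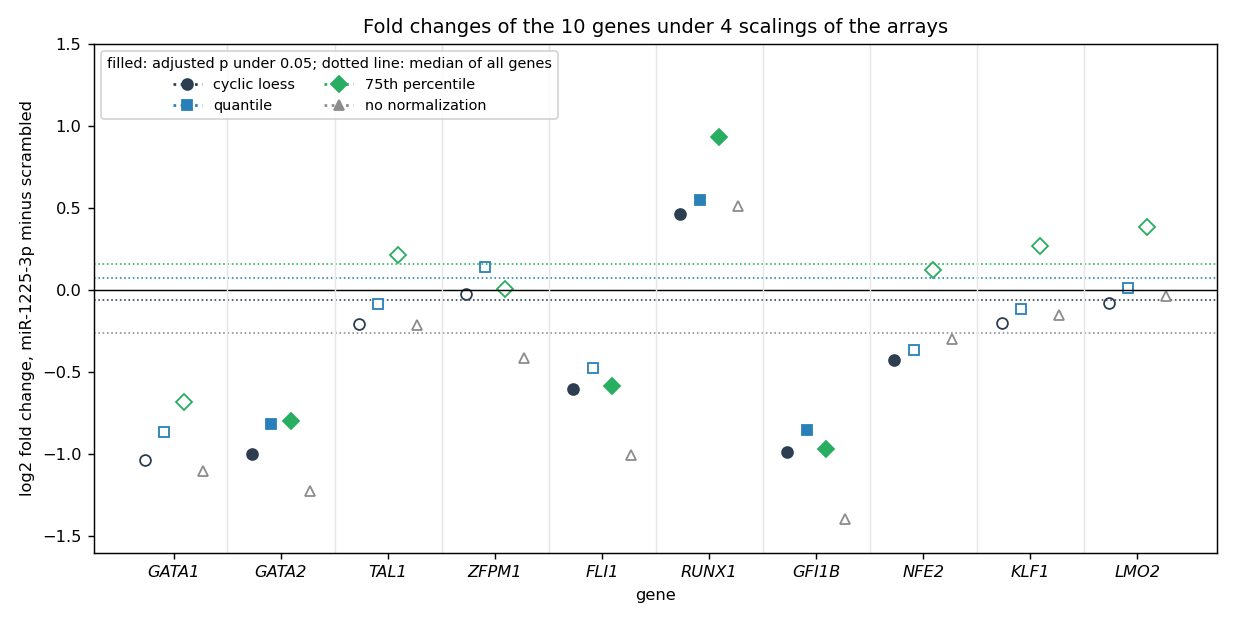
Log2 fold change of miR-1225-3p against scrambled cells (vertical axis) of the 10 genes (horizontal axis) under cyclic loess, quantile and 75th percentile scaling and with no normalization, with dotted lines at the median of all genes for each (-0.06, 0.08, 0.16 and -0.26). GATA1, GATA2, FLI1 and GFI1B stay below 0 and RUNX1 above it in all 4, while NFE2, TAL1, ZFPM1, KLF1 and LMO2 cross 0 with the 75th percentile.

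The 5 genes called were also the 5 whose groups did not overlap. Over all genes tested, 4.74% had every miR-1225-3p array below every scrambled array, against 4 of the 10, and 7.98% had every one above, against 1 of the 10. For a single gene with 5 arrays per group, such a separation gives the smallest two-sided exact permutation p this design allows, 0.00794. GATA1, with overlap, had an exact permutation p of 0.0397, and TAL1 had 0.0238. Without replicate 5, limma called 6 of the 10 genes, 5 lower (GATA1 in addition) and 1 higher. In that fit 55.4% of all genes were called, 29% as lower.

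The genes whose signals over the 10 arrays were most like those of the circuit were sought among 11981 other genes well above background on all arrays. GATA2 was nearest to TMEM9 (Pearson r = 0.990) and MAGED1 (r = 0.988), GFI1B to BBX (r = 0.976) and ITPRIP (r = 0.974), FLI1 to MED13 (r = 0.962) and GOLGB1 (r = 0.954), and NFE2 to FPR1 (r = 0.970) and ADORA2B (r = 0.966). GATA1 was nearest to SGTA (r = 0.990) and PECAM1 (r = 0.990), RUNX1 to SFPQ (r = 0.972) and ACSL5 (r = 0.971), and ZFPM1 to USE1 (r = 0.962) and SSR4 (r = 0.953). LMO2 was nearest to ELF4 (r = 0.956) and KLF1 to PELP1 (r = 0.971), each followed by a probe for a long intergenic RNA, and both nearest to TAL1 were such probes (r = 0.889 and 0.884). These correlations include the difference between the groups and have 10 points each.

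Of 13 listed partners of the TAL1 complex 11 were tested, and 5 fell, 0 rose and 6 did not pass. This is 45.5% called against 35.0% of all genes, with a median log2 fold change of -0.68 against -0.06 for all genes tested. Without replicate 5, 5 were lower and 2 higher (SSBP4 and CBFA2T3), where 55.4% of all genes were called. Each of the 32 calls in the 10 lists described from here on was also made without replicate 5, in the same direction. Since leaving out that array raised the share of all genes called from 35.0% to 55.4%, this is no separate support. With each array left out in turn, the 27 calls outside the lists of other cell types became 13 to 50. LYL1, a relative of TAL1, fell the most (7.06 ± 1.37 against 8.75 ± 0.344, SD, n = 5, log2 fold change -1.69, adjusted p = 0.0419 from limma), but replicate 5, at 9.18, lay above every scrambled array. LYL1 lost its call without any 1 of the other 9 arrays (adjusted p between 0.0608 and 0.0953), and without replicate 5 its value was -2.22 (adjusted p = 0.000735). LMO4 (-1.03), CBFA2T2 (-0.97), TCF3 (-0.97) and SSBP2 (-0.68), all known to join LDB1 or TAL1 complexes, also fell. A dimmer probe of CBFA2T2 gave 0.42 (adjusted p = 0.0994), SSBP2 did not pass with the 75th percentile subtracted (-0.23, adjusted p = 0.191), and TCF3 lost its call when any 1 array other than miR-1225-3p replicates 1 and 5 was left out. LDB1 itself, the scaffold of the complex, had a log2 fold change of -0.36 that did not pass (adjusted p = 0.623 from limma).

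GFI1B and FOG1 work through corepressors, and 17 of 18 listed subunits were tested. Of these, 4 fell and 2 rose, 35.3% called against 35.0% of all genes, with a median of -0.14. Without replicate 5, 6 were lower and 5 higher, where 55.4% of all genes were called. KDM1A, the histone demethylase that GFI1B recruits, fell from 7.22 ± 0.212 in scrambled cells to 4.68 ± 1.75 after miR-1225-3p (SD, n = 5, log2 fold change -2.54, adjusted p = 0.0244 from limma). Only 2 arrays of the miR-1225-3p group read it well above background, so that it passed the filter through the scrambled group and the size of its difference rests on dim values; with normexp it was -0.86 (adjusted p = 0.0315). Replicate 5, at 7.42, was among the scrambled arrays. Without replicate 5 the value was -3.23 (adjusted p = 0.000218), and leaving out any of replicates 2 to 4 of either group ended the call (adjusted p up to 0.0607). CTBP1 (-1.96, and -1.08 with normexp), GATAD2A (-1.80) and CHD4 (-1.54), of CtBP and NuRD complexes, also fell. A dimmer probe of GATAD2A gave 0.59 (adjusted p = 0.182). GATAD2A lost its call when any 1 array other than miR-1225-3p replicates 1 and 5 and scrambled replicate 5 was left out, and CHD4 when any other than miR-1225-3p replicates 1, 4 and 5 was. RBBP7, a histone-binding subunit of NuRD, rose by 0.54 (12.29 ± 0.294 against 11.75 ± 0.0478, SD, n = 5, adjusted p = 0.0265 from limma), and RCOR3 rose by 0.53. RBBP7 lost its call without any 1 of 7 arrays (adjusted p up to 0.0661) and RCOR3 without any 1 of 8 (adjusted p up to 0.0895), replicate 5 not among them.

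Among 11 tested relatives and partners of RUNX and ETS factors, 3 were called, 2 higher and 1 lower, with a median of -0.27. This is 27.3% called against 35.0% of all genes. Without replicate 5 the counts were the same, against 55.4% of all genes. ETV6, an ETS repressor, rose by 0.97 with its brightest probe (7.39 ± 0.686 against 6.41 ± 0.280, SD, n = 5, adjusted p = 0.0356 from limma), while the dimmer of its probes gave -0.34 (adjusted p = 0.158). Without replicate 5 the value was 1.28 (adjusted p = 0.000228), and the call was lost without any 1 of the other 9 arrays. ETS2 fell by 0.84 (8.11 ± 0.329 against 8.95 ± 0.236, SD, n = 5, adjusted p = 0.0156 from limma), with no overlap between groups. CBFB, the partner of RUNX1, had a log2 fold change of -0.65 that did not pass (adjusted p = 0.152).

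Of the 6 tested partners and relatives of NFE2, 2 fell and 1 rose, also without replicate 5, with a median of -0.23. BACH1, which competes for the same small MAF partners, fell by 1.14 (9.30 ± 0.519 against 10.43 ± 0.102, SD, n = 5, adjusted p = 0.0139 from limma), and every miR-1225-3p array lay below every scrambled array. The small MAF genes gave -0.84 for MAFF (adjusted p = 0.0162), -0.26 for MAFK (adjusted p = 0.215) and 0.23 for MAFG (adjusted p = 0.213), of which a second, dimmer probe gave -2.58 (adjusted p = 0.0259). NFE2L3 rose by 0.69 (adjusted p = 0.0369 from limma), a call that was lost without any 1 array other than replicate 5 (adjusted p between 0.0536 and 0.0895). Of the 4 tested members of the same families (5 of 9 were dim), KLF13 fell by 0.98 (10.81 ± 0.462 against 11.78 ± 0.0908, SD, n = 5, adjusted p = 0.0148) and GFI1 fell by 0.66 (adjusted p = 0.0141), both from limma, while KLF3 (0.44) and LMO3 (0.50) did not pass. GFI1 did not pass with the 75th percentile subtracted (-0.37, adjusted p = 0.105), and LMO3 was called without replicate 5 (adjusted p = 0.0214).

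The genes that the circuit is known to regulate did not move in 1 direction. Of 20 listed megakaryocyte genes 11 were tested, 2 fell and 0 rose, 18.2% called against 35.0% of all genes, with a median of -0.74. MYH9, the platelet non-muscle myosin whose gene RUNX1 is known to control, had signals of 7.19, 5.32, 5.03, 4.30 and 9.60 after miR-1225-3p against 10.00 ± 0.484 (SD, n = 5) in scrambled cells. Replicates 1 to 4 lay far below the scrambled arrays and replicate 5 lay among them, and 3 of the 5 were well above background. Its log2 fold change was -3.71 (adjusted p = 0.0166 from limma), and -4.54 without replicate 5, while a second, dimmer probe gave -0.44 (adjusted p = 0.247). ITGA2B, the platelet integrin chain and a GATA1, FLI1 and GFI1B target, fell by 1.39 (8.42 ± 1.07 against 9.82 ± 0.488, SD, n = 5, adjusted p = 0.0437 from limma). Replicate 5, at 10.25, lay above 4 of the 5 scrambled arrays. The call of ITGA2B was lost with quantile normalization (-1.20, adjusted p = 0.0565), with the 75th percentile subtracted (-1.08, adjusted p = 0.0524), and without any 1 array other than replicate 5 (adjusted p between 0.0573 and 0.0991). PF4 and TUBB1, defining markers of platelets, were not well above background on any array, and neither was given a fold change.

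Of 23 tested erythroid genes 3 rose and 1 fell, 17.4% called against 35.0% of all genes, with a median of -0.05. HBE1, embryonic globin, fell by 1.71 (10.01 ± 0.934 against 11.72 ± 0.293, SD, n = 5, adjusted p = 0.0165 from limma), with replicate 5 at 11.51. Without replicate 5 HBE1 fell by 2.09 (adjusted p = 0.000163). Of 8 tested progenitor and mast cell genes of the GATA2 programme, KIT fell by 0.53 (adjusted p = 0.0427 from limma) and IKZF2 rose by 0.66 (9.72 ± 0.121 against 9.06 ± 0.176, SD, n = 5, adjusted p = 0.0138). This is 25.0% called against 35.0% of all genes, with a median of 0.12. Of 2 dimmer probes of IKZF2, one gave -0.02 (adjusted p = 0.948) and the other 1.09 (adjusted p = 0.0343). KIT lost its call without any 1 of 7 arrays (adjusted p up to 0.0983). Without replicate 5, limma called 7 of the 11 megakaryocyte genes, 6 of them lower. It also called 11 of the 23 erythroid genes, 7 of them lower, and 5 of the 8 progenitor genes. Over all genes, 55.4% were called in that fit, 29% as lower. In each of these lists the counts include dim genes that passed the filter only through the group where they read higher. The calls of those dim genes rest on values near background, while HBE1, ITGA2B, KIT and IKZF2 were well above background on every array.

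**Figure D5:**
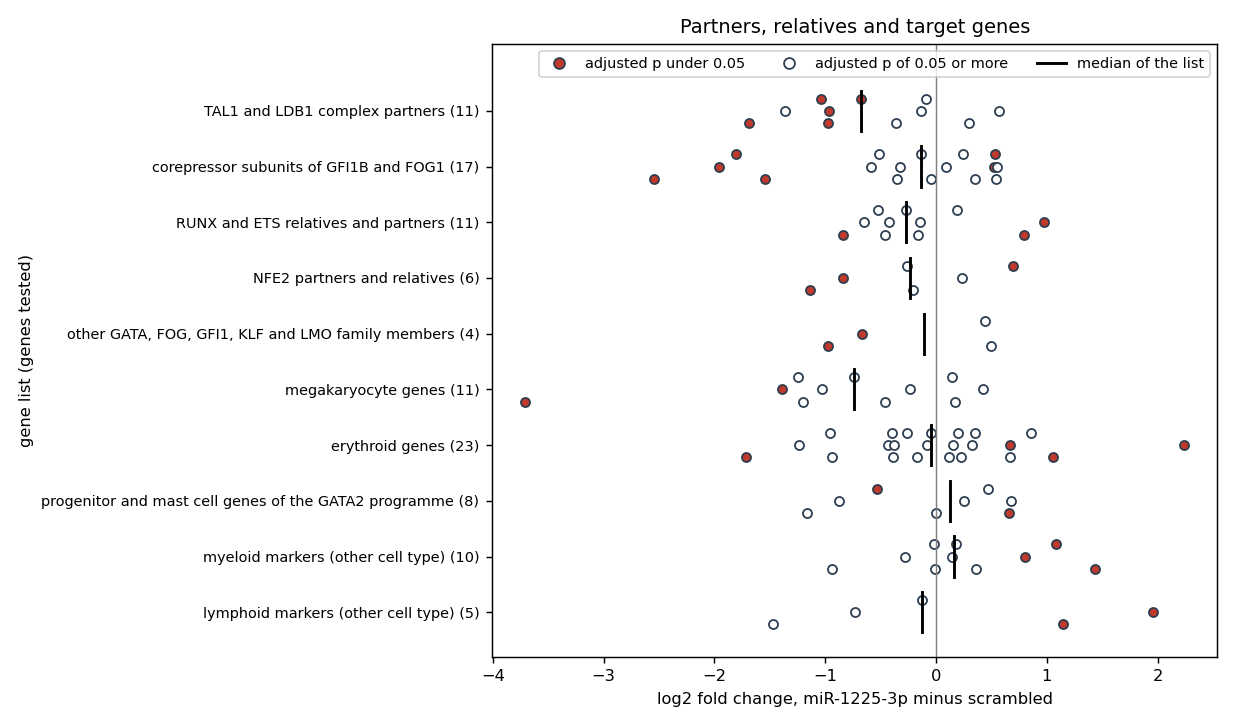
Log2 fold change of miR-1225-3p against scrambled cells (horizontal axis) of every tested gene of 10 lists (vertical axis, number tested in brackets), with called genes filled and the median of each list as a bar. The megakaryocyte list has the lowest median (-0.74) and the myeloid list the highest (0.17).

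Markers of other cell types were measured beside these genes. Of 12 listed myeloid markers 10 were tested, and AZU1 (1.44, adjusted p = 0.0198), S100A8 (1.08, adjusted p = 0.0156) and MPO (0.80, adjusted p = 0.0173) rose in limma, while ELANE (-0.94, adjusted p = 0.0549), CEBPA (-0.28), PRTN3 (-0.02), CEBPE (-0.01), CSF1R (0.15), CSF3R (0.19) and CD14 (0.36) did not pass. The 3 that rose are 30.0% of the 10 tested, against 35.0% of all genes called. AZU1 did not pass with normexp (0.51, adjusted p = 0.0606) or without miR-1225-3p replicate 2 (adjusted p = 0.0523), and ELANE was called lower without replicate 5 (-1.24, adjusted p = 0.0023). Their summed linear signal was 1174 to 1845 after miR-1225-3p and 1103 to 1352 in scrambled cells, and 0 of them were below background throughout. Of 12 lymphoid markers 5 were tested, and IL7R (1.15, adjusted p = 0.0136) and CD3E (1.96, adjusted p = 0.0327) rose, while CD79A (-1.47, adjusted p = 0.0626), CD79B (-0.73) and CD3D (-0.13) did not pass. The 2 that rose are 40.0% of the 5 tested, against 35.0% of all genes called. CD3E was well above background on 3 miR-1225-3p arrays and 1 scrambled array. Its call was lost in 14 of 26 alternatives, among them normexp (0.47, adjusted p = 0.0526). Without replicate 5, where 55.4% of all genes were called, CD79A (-1.85, adjusted p = 0.012) and CD79B (-0.90, adjusted p = 0.0387) were called lower by limma. CD79B was well above background on 1 miR-1225-3p array and 3 scrambled arrays, so it passed the filter only through the scrambled group. With normexp and all arrays it gave -0.11 (adjusted p = 0.326 from limma). CD2, EBF1, MS4A1, PAX5 and TCF7 were not well above background on any array. The summed linear signal was 4063 to 6131 after miR-1225-3p and 5115 to 11070 in scrambled cells for the lymphoid list, 2270 to 3714 and 3970 to 4304 for the megakaryocyte list, and 297000 to 450200 and 375200 to 604000 for the erythroid list. The erythroid sum is weighted to HBG1, whose mean log2 signal was 18.34 in scrambled cells. The next brightest gene of that list, HBA2, was at 15.34, so the erythroid sum is not read as a trait of the whole list. Only the sum of the megakaryocyte list was separated between the groups. The megakaryocyte sum includes the brighter MYH9 probe, with a log2 fold change of -3.71, while the dimmer MYH9 probe gave -0.44. The sum was not taken without MYH9, so its separation is not read as a trait of the whole list. The part of this sum in the changes of the transcription factors was not tested.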

How the data were processed

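The authors deposited Agilent Feature Extraction (version 10.7.3.1, per the submitters' processing notes) scanner output of 10 Cy3 arrays. In the deposited files the processed signal is an intensity from which background had already been subtracted, and the median spot and background signals are raw intensities. They also deposited a table of normalized log2 values for 29271 probes. Of 42405 probes, 24910 were named through RefSeq accessions (GRCh38.p14), and the scanner files gave the other names. In limma 3.58.1 (R 4.3.3), cyclic loess (3 iterations) was applied to the log2 of the processed signals. The 4259 control spots and all outlier spots were dropped, and repeated spots of 1 probe were averaged. A probe was kept where 3 or more arrays of a group read it well above background, and the brightest kept probe represented a gene. Groups were compared with lmFit and eBayes, with Benjamini-Hochberg adjustment over 17379 genes or 20648 probes. An array left out was dropped after normalization. The fit was tested on simulated data.

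The 10 genes and the lists were chosen with earlier results of these data known. All probes of the 10 genes are given, with the called gene of the largest rise and fall of each list, every tested marker of other cell types and the 2 genes of highest Pearson correlation with each. Some listed genes enter the counts but are not reported here by name. Other genes named were chosen after their values were seen. Alternatives covered normalization, value source, background, filter, flags, probe choice, test, slide and replicate blocks, and each array left out. Normexp used an offset of 50. The scale, centring and direction of the authors' table were read from its agreement with the scanner values. Levels of different probes were not compared. Seed matches were not tested, since no 3' UTR sequence was used here. The number of arrays limits the precision.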

Additional observations from a re-analysis of the deposited data

Results flagged for a closer look

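In 8 of 116 groups of 5 arrays, 1 array lay far from the other 4 by Dixon's criterion, which chance alone would give in about 5.8. ETV6 was at 6.17 on miR-1225-3p replicate 5, while the next lowest array of the group was at 7.57. HBE1 was at 11.21 on scrambled replicate 5, below 11.75 on the next lowest scrambled array. LMO4 was at 9.497 on miR-1225-3p replicate 5, above 8.71 on the next highest, and at 9.41 on scrambled replicate 5, below 9.76 on the next lowest. On miR-1225-3p replicate 5, SSBP2 was at 10.85 (next highest 10.27), CTBP1 at 7.58 (next highest 5.72) and MAFF at 9.91 (next highest 9.18). The RUNX1 probe A_33_P3211809 was at 8.26 on scrambled replicate 2, above 6.51 on the next highest. Of these 8 values, 5 belong to miR-1225-3p replicate 5, the array that lay among the scrambled ones on the first principal component.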

How the results depend on the processing

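The number of the 10 genes called was 4 lower and 1 higher. With quantile normalization 2 were lower, with the mean of probes 0 were higher, and with no normalization 0 were lower and 0 higher. Within slide 1, 2 were lower and 0 higher, and within slide 2, with 3 against 2 arrays and miR-1225-3p replicate 5 among them, 0 and 0. Leaving out 1 array gave 2 to 5 lower and 0 to 1 higher. The number of all genes called by limma, 6091, was 1266 with no normalization, 3411 with no filter (more genes tested), 11757 with array weights, 0 within slide 2 (1220 at an unadjusted p under 0.05), and 2129 to 9624 when 1 array was left out. The number of listed partner, relative and target genes called, 27, was 42 with the 75th percentile, 4 with no normalization, 13 with no filter, 64 with array weights, 0 within slide 2 and 13 to 50 when 1 array was left out. The causes of these differences were not tested, and within slide 2 the slide, the number of arrays and replicate 5 cannot be told apart.

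When limma was given the replicate numbers as a block, 0 genes were called over the whole array (7474 had an unadjusted p under 0.05), and so 0 of the 10 genes lower, 0 higher and 0 of the listed genes. The lowest adjusted p of the 10 was 0.0519, for GATA2 and GFI1B. Deviations of same-numbered arrays correlated between -0.401 and 0.0723, so the number was not taken to pair the arrays.

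The log2 fold change changed sign in these cases. With the 75th percentile it was 0.21 for TAL1, 0.0083 for ZFPM1, 0.13 for NFE2, 0.27 for KLF1, 0.39 for LMO2, 0.36 for CD3D and 0.20 for CEBPE. With quantile normalization it was 0.14 for ZFPM1, 0.0125 for LMO2, 0.0552 for PRTN3 and 0.14 for CEBPE. With no normalization it was -0.21 for CSF1R, -0.20 for CSF3R, -0.10 for CD14 and -0.39 for RUNX1 probe A_24_P96403, which was -0.0294 in the authors' values and -0.30 within slide 2. Normexp gave 0.0409 for ZFPM1 and 0.0219 for PRTN3, and the mean of probes -0.13 for RUNX1 and -1.17 for MAFG, which was -2.58 with the probe of smallest p. Array weights gave 0.0399 for ZFPM1, 0.0042 for CD3D, 0.22 for PRTN3 and 0.12 for CEBPE. The slide as a block gave 0.0562 for PRTN3. Within slide 1 the values were 0.18 for PRTN3, 0.0412 for CEBPE and -0.013 for CSF3R, and within slide 2, 0.066 for ZFPM1 and 0.38 for LDB1. Leaving out 1 array moved LDB1 between -0.68 and 0.20, ZFPM1 between -0.13 and 0.15, PRTN3 between -0.16 and 0.11, CEBPE between -0.13 and 0.12, CSF1R between -0.0047 and 0.31, CSF3R between -0.0189 and 0.38 and RUNX1 probe A_24_P96403 between -0.0619 and 0.12.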
